A study of Mus musculus with 8 samples.

Results

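Efferocytosis is the engulfment of dying cells by macrophages and other phagocytes, and 10 genes of this process were followed in mouse tumours of 4T1, a mammary carcinoma cell line. They comprise the receptors Axl, Mertk, Tyro3, Lrp1 and Stab1, the bridging proteins Gas6, Pros1 and Mfge8, and the engulfment proteins Dock1 and Elmo1. They are 10 of the 32098 gene rows of the deposited table and were taken from it by symbol. The group was picked because Dock1 separated the treatments strongly in these same tumours, so the difference between treatments is given for the 10 genes as a description and is not tested. RNA was extracted from whole tumours of 2 treatment groups. One group of 4 had been given an immune checkpoint inhibitor only (ICI, numbered 1 to 4), and the other group of 4 had also been irradiated (RI, numbered 1, 2, 4 and 5). The design text of the series gives 3 replicates a group, but 4 were listed, and all were used. All tumours carry the genotype label WT, and both groups received the inhibitor. No untreated or radiation-only tumour was analysed here. The labels do not name the inhibitor, the radiation dose, the mouse strain or age, or whether an RI tumour lay in the irradiated field. They also do not state that each tumour came from its own animal, so the p-values given for other genes speak for the scatter among these 8 libraries, part of which may be technical.

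A dying cell exposes phosphatidylserine on its surface, and phagocytes read this lipid either directly, as Stab1 does, or through a soluble bridge. Gas6 binds the lipid and activates the TAM receptor kinases Tyro3, Axl and Mertk. Pros1 also binds the lipid and is known to activate Tyro3 and Mertk, whereas Mfge8 links the lipid to integrins. Lrp1 is a large endocytic receptor that takes part in uptake through surface calreticulin. Dock1 (DOCK180) and Elmo1 form an exchange factor for the GTPase Rac, which drives the actin cup that closes around the corpse. In solid tumours the TAM receptors are known from macrophages and, Axl above all, from mesenchymal cancer cells and fibroblasts. These are whole-tumour measurements, in which fewer cells of a type and less RNA per cell cannot be told apart.

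Levels are FPKM, fragments scaled by transcript length and library size. A difference is RI minus ICI of the mean log2(FPKM + 1), which understates the change of genes with low levels, and its standard error (SE) is from limma fitted to the 13439 genes that reached 1 FPKM in 4 or more tumours. Of the 10 genes, 9 passed that filter and Elmo1 did not. The fragments recovered from the FPKM values totalled 27012800 to 42622400 per tumour. Dock1 rested on 492 to 2486 fragments per tumour and Lrp1 on 15058 to 44012.

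Several libraries stood apart from the others of their group. ICI 1 and ICI 4 carried transcripts of lung epithelium: 8 marker genes, among them the surfactant genes Sftpc and Sftpb, summed to 8788 FPKM in ICI 1 and 1034 in ICI 4. The same sum was 0.966 in ICI 2, 0.886 in ICI 3 and between 0.0822 and 1.15 in the RI tumours. Sftpc, the marker of alveolar type II cells, had 2887 FPKM in ICI 1 and 707 in ICI 4. ICI 1 also held the most neutrophil transcripts, with 11 markers summing to 22677 FPKM against a range of 264 to 706 for ICI 2, 3 and 4 and of 110 to 284 for RI. RI 4 differed in its total, 717092 summed FPKM against 358243 to 494399 in the other libraries. The lung list and the fits without ICI 1 and ICI 4 were added after the values were seen. Values without ICI 1, or without both, are given below for the 10 genes, and for the other named efferocytosis genes where they move the difference by over 1.5 times. The part of lung or neutrophil RNA in any difference was not tested.

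The 10 genes were present at very different levels (plot of FPKM per tumour). Averaged over the 8 tumours, Axl was at 159.6 FPKM, Mfge8 at 56.2, Lrp1 at 40.9, Stab1 at 18.9, Gas6 at 14.3, Pros1 at 5.42, Dock1 at 4.32, Mertk at 3.31, Tyro3 at 2.08 and Elmo1 at 1.01. FPKM is a level per length, so genes can be compared on it as far as the length used fits the transcripts present. The exon lengths here cover all annotated exons of a gene, and their fit was not tested. Elmo1 had 227 to 1262 fragments over 12580 exon bases, and Mertk 261 to 976 over 4336. Only Axl and Mfge8 had ranges over the 8 tumours that did not overlap. The lowest Axl value, 91.5 FPKM, lay above the highest Mfge8 value, 77.5 FPKM. The ranges of all other neighbours in this order overlapped. Compared within each tumour, Lrp1 was above Stab1 in all 8, and Gas6 was above Pros1 in all 8.

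**Figure D1:**
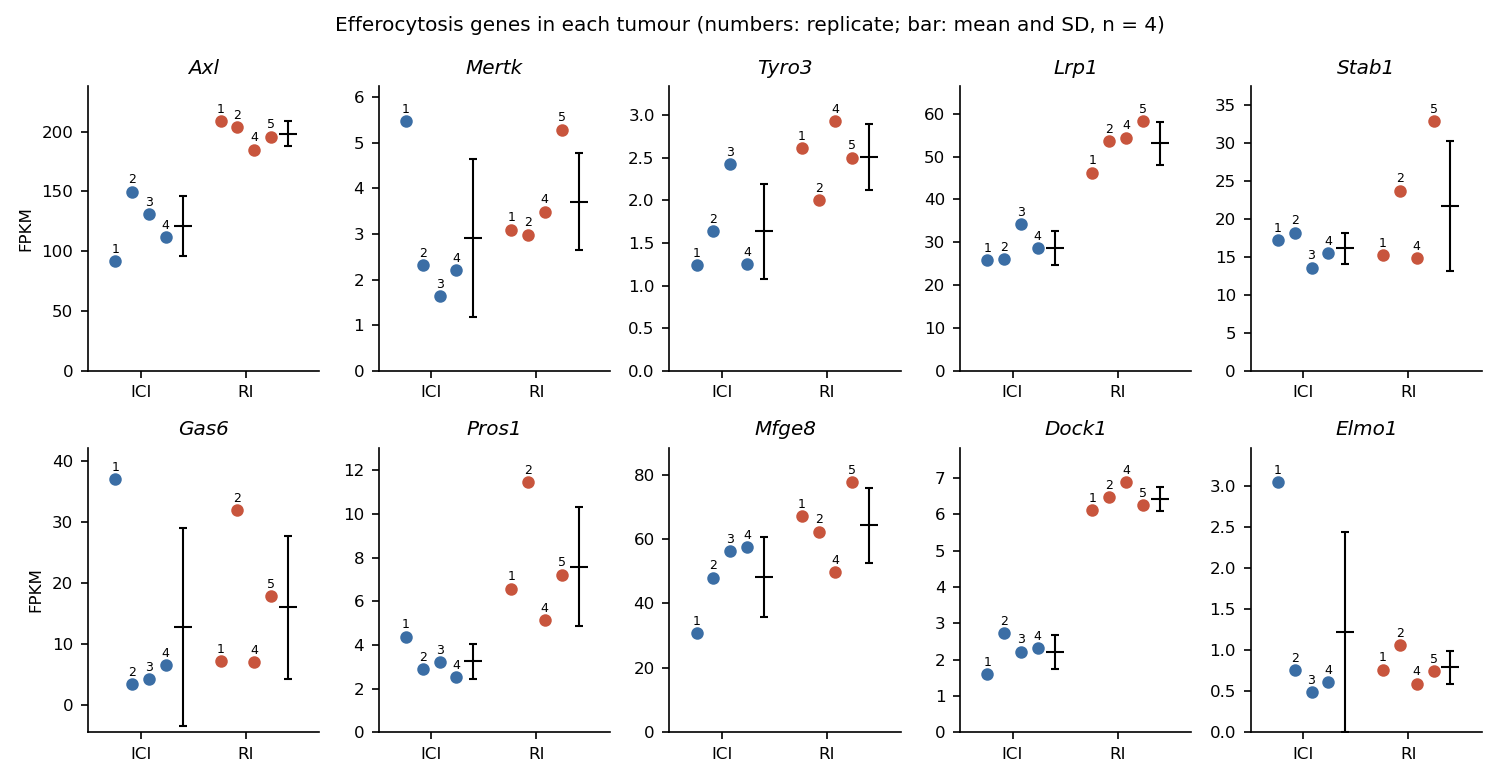
FPKM of the 10 efferocytosis genes in each tumour, ICI in blue and RI in red, with the replicate number above each point and the mean and SD of the 4 tumours of a group as a bar. Dock1, Lrp1, Axl and Pros1 have all 4 RI tumours above all 4 ICI tumours, and ICI 1 is the highest ICI tumour for Gas6, Mertk, Elmo1 and Pros1.

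The groups did not overlap for 4 of the 10 genes, and in each of these, Dock1, Pros1, Lrp1 and Axl, all RI tumours lay above all ICI tumours. Over all genes tested, 27.9% had groups that did not overlap, 16.7% with RI above. The same 4 were the ones that limma fitted to the whole table called at an adjusted p under 0.05, among 9 tested, while 17.7% of all genes tested were called. Without ICI 1 and ICI 4 the fit called 2 of the 9. Because the group was chosen on this contrast, nothing is read from these counts. The same holds for directions: all 9 tested genes were higher in RI, as were 6867 of all 13439 genes. The median difference was 0.66 in the 9 and 0.01 over all genes. Elmo1 was lower in RI by mean, but not without ICI 1.

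The stretches just before the start sites of the 4 genes whose groups did not overlap are shown because these are the genes the comparison turns on and they share a sequence feature. They are from RefSeq on GRCm38.p6, in the direction of transcription, and end before the annotated start of their own gene. Exons of other genes were not looked for. Capitals mark GC boxes, the letters GGGCGG on either strand, where neighbouring boxes can overlap. Dock1 is chr7:134670437-134670653 (plus strand), Lrp1 is chr10:127621149-127621398 (minus strand), Axl is chr7:25788734-25788983 (minus strand) and Pros1 is chr16:62854057-62854306 (plus strand).
Dock1: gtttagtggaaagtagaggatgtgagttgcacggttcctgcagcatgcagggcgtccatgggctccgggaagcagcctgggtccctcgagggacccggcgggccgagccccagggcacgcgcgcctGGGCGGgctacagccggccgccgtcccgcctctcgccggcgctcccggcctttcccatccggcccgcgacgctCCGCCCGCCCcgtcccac
Lrp1: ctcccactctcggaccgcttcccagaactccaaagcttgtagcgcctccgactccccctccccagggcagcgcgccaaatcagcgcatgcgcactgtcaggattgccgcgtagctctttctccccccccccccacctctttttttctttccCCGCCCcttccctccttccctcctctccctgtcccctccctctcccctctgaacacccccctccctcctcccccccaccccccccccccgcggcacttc
Axl: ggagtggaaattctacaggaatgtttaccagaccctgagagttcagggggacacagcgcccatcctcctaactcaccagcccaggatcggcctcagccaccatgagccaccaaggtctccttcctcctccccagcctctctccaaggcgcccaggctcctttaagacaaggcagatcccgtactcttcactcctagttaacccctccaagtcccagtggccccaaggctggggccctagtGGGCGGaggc
Pros1: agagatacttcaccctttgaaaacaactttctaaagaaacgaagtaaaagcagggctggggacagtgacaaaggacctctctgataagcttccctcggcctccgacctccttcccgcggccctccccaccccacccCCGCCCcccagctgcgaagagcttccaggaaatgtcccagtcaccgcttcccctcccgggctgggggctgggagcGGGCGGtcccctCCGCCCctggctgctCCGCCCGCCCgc

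The 250 bases before the start site were searched on both strands for all 10 genes, which matched 11 RefSeq windows because Elmo1 has 2. A GC box was in 9 of the 11 windows, against 32.7% of all 32851 windows of that length. Those windows were not matched to the 11 for expression or for their share of G and C, so the shares are of unlike sets. Pros1 had 5 such boxes, Mfge8 and Gas6 4 each, Dock1, Tyro3 and Mertk 3 each, and Axl and Lrp1 1 each. Elmo1 had 3 in one window and none in the other, and Stab1 had none. The box was thus present both in genes that separated the treatments and in genes that did not. The share of G and C ran from 43.6% in an Elmo1 window to 73.2% in Tyro3, with 71.6% in Dock1 and 60% in Axl, against a median of 52.4% over all windows. The TEAD letters CATTCC were in 1 of the 11 windows, that of Axl, against 12.6% of all windows. The TATA letters TATAAA were in 1, an Elmo1 window, against 12.4%. The AP-1 letters TGANTCA and the E-box CACGTG matched in none of the 11, and were in 6.75% and 6.02% of all windows. A match is a run of letters and not a measured binding site, and its absence covers only these windows.

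Among the bridging proteins, Pros1 (protein S, a vitamin K-dependent plasma protein and TAM ligand, chr16:62854307-62929346, plus strand, GRCm38) was higher in RI. Its FPKM was 4.38, 2.88, 3.21 and 2.52 in ICI 1 to 4, and 6.57, 11.4, 5.14 and 7.21 in RI 1, 2, 4 and 5. Every RI tumour exceeded every ICI tumour, and RI 2 stood highest. The mean was 3.25 ± 0.807 (SD, n = 4) in ICI and 7.59 ± 2.71 (SD, n = 4) in RI, a ratio of 2.34 and a difference of 0.99 (SE 0.23). It was 1.04 without ICI 1 and ICI 4.

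Gas6, the ligand with the strongest known affinity for Axl (chr8:13465374-13494490, minus strand), was uneven within both groups. Its FPKM was 37.0, 3.32, 4.15 and 6.47 in ICI 1 to 4, and 7.12, 31.9, 6.94 and 17.8 in RI 1, 2, 4 and 5. The highest value of all was in ICI 1, so the groups overlapped, although the 3 other ICI tumours lay below every RI tumour. The means were 12.7 ± 16.2 in ICI and 15.9 ± 11.8 in RI (SD, n = 4 each), with a difference of 0.66 (SE 0.74). It was 1.36 without ICI 1, 1.58 without ICI 1 and ICI 4, and 0.26 without RI 2. Of the summed FPKM of the 2 TAM ligands, Gas6 made up 52.0% (RI 1) to 89.4% (ICI 1).

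Mfge8 (milk fat globule-EGF factor 8, chr7:79133768-79149060, minus strand) was the most abundant bridge in every tumour except ICI 1. Its FPKM was 30.9, 48.0, 56.3 and 57.5 in ICI 1 to 4, and 67.2, 62.3, 49.8 and 77.5 in RI 1, 2, 4 and 5. RI 4 lay inside the ICI range, and the other 3 RI tumours lay above it. The means were 48.2 ± 12.3 and 64.2 ± 11.5 (SD, n = 4 each), with a difference of 0.43 (SE 0.23) that was 0.28 without ICI 1 and ICI 4. In ICI 1 Mfge8 made up 42.7% of the summed FPKM of the 3 bridges and Gas6 51.2%, whereas Mfge8 made up 59.0% to 88.6% in the other 7 tumours.

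Axl (chr7:25757273-25788705, minus strand), the TAM kinase that mesenchymal tumour cells are known to carry, held nearly all the TAM receptor RNA. Its share of the summed FPKM of Axl, Mertk and Tyro3 was 93.2% to 97.6%, and it was lowest in ICI 1. Its FPKM was 91.5, 149.9, 130.9 and 111.6 in ICI 1 to 4, and 208.9, 203.8, 184.8 and 195.8 in RI 1, 2, 4 and 5. The RI tumours were all higher and lay close together. The mean was 121 ± 25.1 in ICI and 198 ± 10.5 in RI (SD, n = 4 each), a ratio of 1.64 and a difference of 0.73 (SE 0.19). The coefficient of variation was 20.8% in ICI and 5.30% in RI. Without ICI 1 and ICI 4, the 2 lowest tumours, the difference was 0.50.

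Mertk (chr2:128698956-128802894, plus strand), the TAM kinase typical of macrophages that clear corpses, was at 5.47, 2.32, 1.64 and 2.21 FPKM in ICI 1 to 4, and at 3.09, 2.98, 3.49 and 5.28 in RI 1, 2, 4 and 5. ICI 1 was the highest of all 8 tumours, while the other 3 ICI tumours lay below every RI tumour. The means were 2.91 ± 1.74 and 3.71 ± 1.07 (SD, n = 4 each), with a difference of 0.33 (SE 0.28), which was 0.61 without ICI 1, 0.64 without ICI 1 and ICI 4, and 0.19 without RI 5. Tyro3 (chr2:119797733-119818104, plus strand), the TAM kinase best known from the nervous system, was at 1.24, 1.64, 2.42 and 1.25 FPKM in ICI 1 to 4, and at 2.62, 2.00, 2.93 and 2.50 in RI 1, 2, 4 and 5. ICI 3 lay within the RI range, so the groups overlapped. The means were 1.64 ± 0.555 and 2.51 ± 0.386 (SD, n = 4 each), with a difference of 0.43 (SE 0.18) that was 0.22 without ICI 1 and ICI 4.

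Lrp1 (chr10:127538161-127621148, minus strand), the receptor for calreticulin on dying cells and for many secreted proteins, was higher in RI. Its FPKM was 25.8, 26.1, 34.2 and 28.7 in ICI 1 to 4, and 46.2, 53.6, 54.4 and 58.3 in RI 1, 2, 4 and 5. The lowest RI tumour was 11.99 FPKM above the highest ICI tumour. The mean was 28.7 ± 3.92 in ICI and 53.1 ± 5.03 in RI (SD, n = 4 each), a ratio of 1.85 and a difference of 0.87 (SE 0.15). It was 0.80 without ICI 1 and ICI 4. Stab1 (stabilin-1, a scavenger receptor of macrophages and sinusoidal endothelium, chr14:31139013-31168641, minus strand) was at 17.2, 18.2, 13.6 and 15.5 FPKM in ICI 1 to 4, and at 15.3, 23.7, 14.8 and 32.9 in RI 1, 2, 4 and 5. RI 2 and RI 5 were high, and RI 1 and RI 4 lay within the ICI range. The means were 16.1 ± 2.03 and 21.7 ± 8.53 (SD, n = 4 each), with a difference of 0.34 (SE 0.25) that was 0.37 without ICI 1 and ICI 4 and 0.12 without RI 5.

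Dock1 (chr7:134670654-135173639, plus strand), the Rac exchange factor through which bound corpses are engulfed, had the largest difference of the 10 genes over all 8 tumours, whereas without ICI 1 that of Gas6 was larger (1.36 against 1.12). Its FPKM was 1.60, 2.72, 2.22 and 2.31 in ICI 1 to 4, and 6.11, 6.48, 6.88 and 6.25 in RI 1, 2, 4 and 5. The lowest RI tumour was 3.39 FPKM above the highest ICI tumour. The mean was 2.21 ± 0.464 in ICI and 6.43 ± 0.336 in RI (SD, n = 4 each), a ratio of 2.90 and a difference of 1.22 (SE 0.14). Without ICI 1 and ICI 4 the difference was 1.10. The Dock1 values varied little within RI, with a coefficient of variation of 5.23%, against 20.96% in ICI.

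Elmo1 (chr13:20090596-20608353, plus strand), the partner that brings Dock1 to the membrane and is abundant in leukocytes, did not share this pattern. Its FPKM was 3.05, 0.759, 0.492 and 0.609 in ICI 1 to 4, and 0.765, 1.06, 0.592 and 0.748 in RI 1, 2, 4 and 5. ICI 1 was far above the rest, and the other 7 tumours overlapped. The means were 1.23 ± 1.22 and 0.791 ± 0.195 (SD, n = 4 each), with a difference of -0.19 that was 0.14 without ICI 1. These values rested on 227 to 1262 fragments per tumour.

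**Figure D2:**
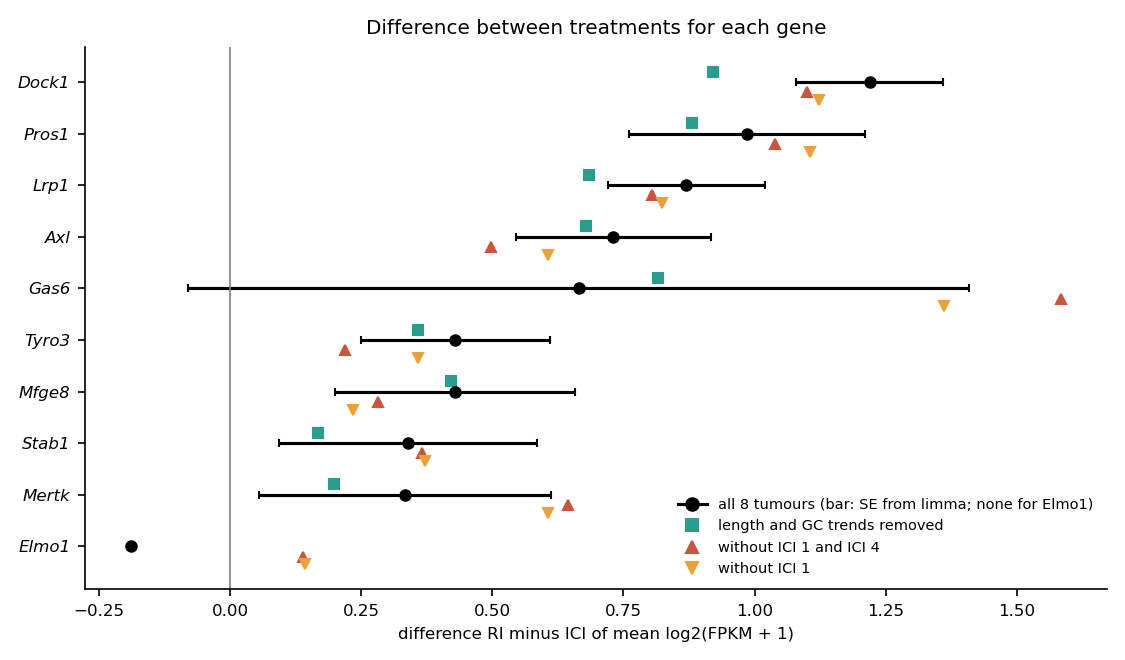
Difference RI minus ICI of mean log2(FPKM + 1) for each gene over all 8 tumours (black, bar: SE from limma), after removal of length and GC trends (squares), without ICI 1 and ICI 4 (upward triangles) and without ICI 1 (downward triangles). Dock1, Pros1, Lrp1 and Axl stay between 0.50 and 1.22 in all of these, Gas6 runs from 0.66 to 1.58, and Elmo1 crosses 0.

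The median difference was larger in longer genes over the whole table, and 4 of the 10 genes are long. With the genes tested divided into 10 groups by exon length, the median difference ran from -0.38 in the shortest to 0.27 in the longest. Dock1 (9330 exon bases), Stab1 (10288) and Lrp1 (17717) belong to the longest group. Elmo1 (12580) is of similar length but was not among the genes tested, and its difference was -0.19. Stab1 exceeded the median of that group by 0.07, Lrp1 by 0.60 and Dock1 by 0.95. Once the trends on exon length and on GC content had been taken out of every library, the difference was 0.92 for Dock1, 0.88 for Pros1, 0.82 for Gas6, 0.68 for Lrp1 and for Axl, and 0.17 for Stab1. The part of gene length in the differences was otherwise not tested.

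**Figure D3:**
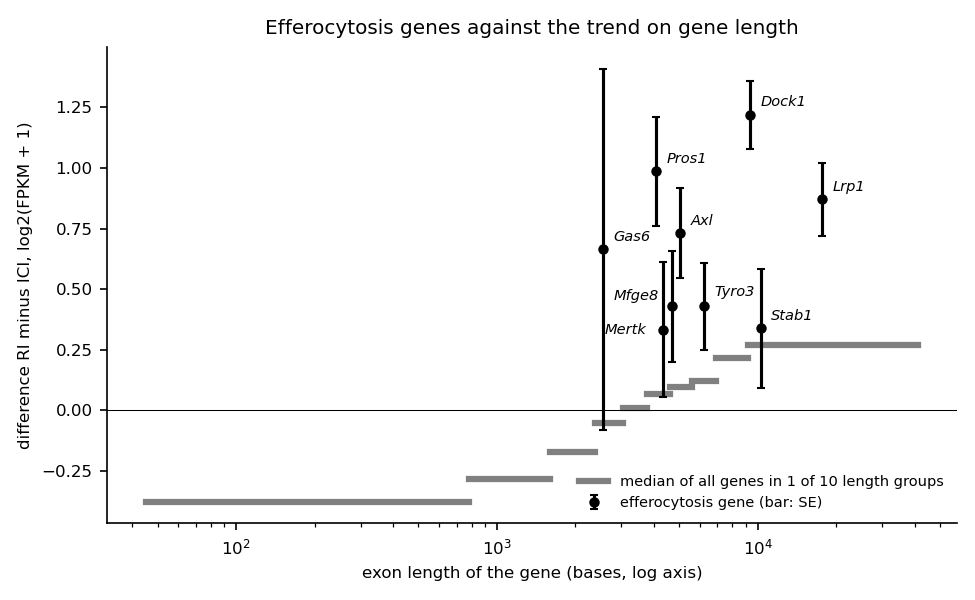
Difference RI minus ICI of mean log2(FPKM + 1) of the 9 tested efferocytosis genes (points, bar: SE) against exon length on a log axis, with the median of all genes in each of 10 length groups as grey lines. The grey lines rise from -0.38 to 0.27, Stab1 lies near the line of its group, and Dock1 lies 0.95 above its line.

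Phagocyte, stromal and tumour cell markers were measured in the same libraries (plot of marker sums). Of the 10 macrophage markers tested 3 rose, beside 11.1% of all genes tested, and by the sign of the difference 7 of the 10 were higher in RI. The summed FPKM of the list was 267 to 584 in ICI and 426 to 704 in RI, and Lyz2 alone was the larger part of it in every tumour. Cd163 and Marco, markers of resident-type macrophages, were below the filter. Adgre1 (F4/80, a surface receptor of mature macrophages) went from 1.22 ± 0.171 to 7.68 ± 1.37 FPKM (SD, n = 4 each; limma with Benjamini-Hochberg adjustment, adjusted p = 0.00158), and Lyz2, the most abundant marker, was at 250 ± 112 and 393 ± 75.6 (adjusted p = 0.108). Mrc1 and Siglec1, the other two that rose, are named after their values were seen. Without ICI 1 and ICI 4, 1 macrophage marker was called. Of 9 fibroblast markers 4 rose, beside the same 11.1% of all genes tested, and the sum was 66.1 to 86.7 FPKM in ICI and 124 to 542 in RI. Col1a1, the main chain of type I collagen, went from 22.9 ± 5.17 to 111 ± 88.1 FPKM (limma adjusted p = 0.0254), and the other three, Col1a2, Col3a1 and Lum, are named after their values were seen. None of the 9 was called by limma without ICI 1 and ICI 4, where the calls over all genes went from 2373 to 603. With voom on recovered fragments 5 of the 9 were called.

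Within RI, the order of Gas6 and of Pros1 over the tumours was the same as that of the summed fibroblast markers, with RI 2 highest (542 FPKM), then RI 5 (257), RI 1 (156) and RI 4 (124). The order of Stab1 within RI was that of the summed macrophage markers, with RI 5 highest (704 FPKM), then RI 2 (555), RI 1 (554) and RI 4 (426). Of the macrophage markers named above, Mrc1 and Siglec1 had that order and Lyz2 and Adgre1 did not. Lyz2 was at 491 FPKM in RI 5, 402 in RI 1, 366 in RI 2 and 311 in RI 4, and Adgre1 was highest in RI 2 (9.02). The summed adipocyte markers had the same order as Gas6 and Pros1 within RI, at 127, 8.58, 2.92 and 2.84 FPKM. Within ICI none of these orders matched: Gas6 and Pros1 were highest in ICI 1 and the fibroblast sum in ICI 3, and Stab1 was highest in ICI 2 and the macrophage sum in ICI 1. So few tumours can share an order by chance, and orders are not given for every gene and list. RI 2 and RI 1 were also nearly tied in the macrophage sum. The part of any cell type in the levels was not tested. In ICI 1, where Gas6, Mertk and Elmo1 were highest, the endothelial sum was 368 FPKM against 52.0 to 98.3 in the other 7 tumours, and the B cell sum was 21.5 against 1.40 to 5.63. Dock1 and Axl were lowest in that library.

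**Figure D4:**
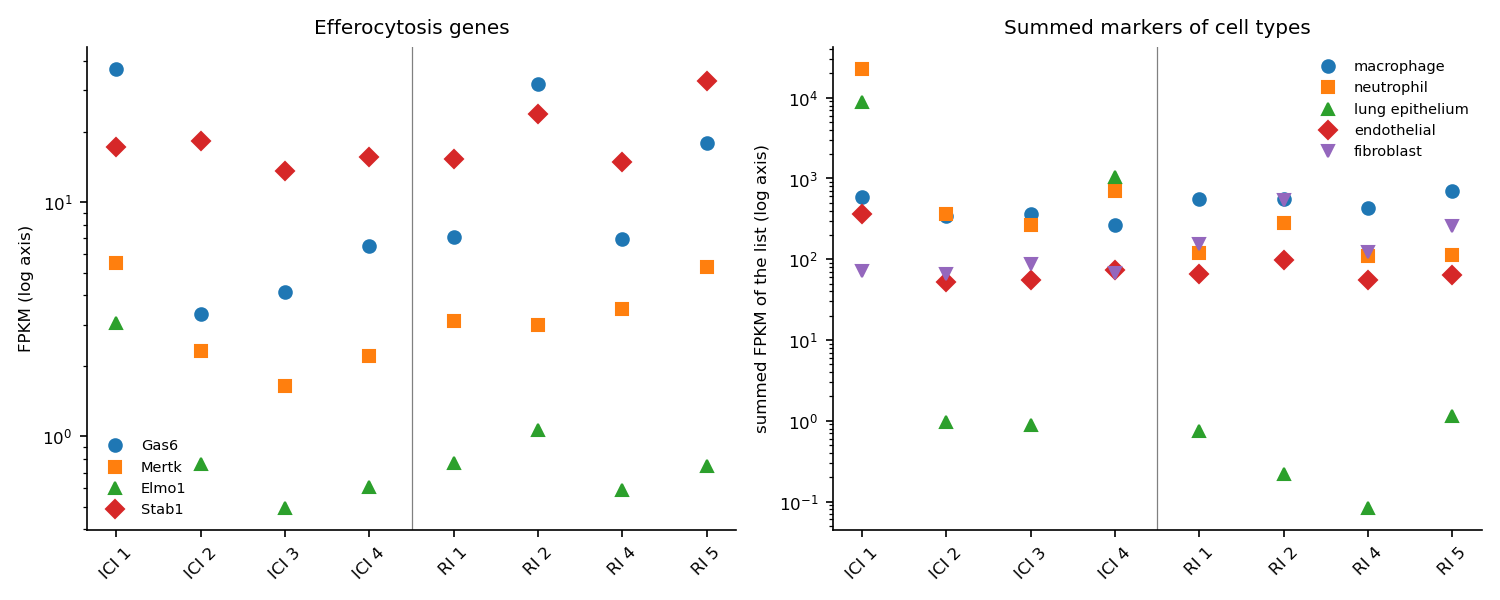
Left, FPKM (log axis) of Gas6, Mertk, Elmo1 and Stab1 in each tumour. Right, summed FPKM (log axis) of 5 marker lists in the same tumours, where ICI 1 is highest for lung epithelium (8788 FPKM), neutrophils (22677) and endothelium (368), and RI 2 for fibroblasts (542).

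Neutrophil markers were lower in RI for 9 of the 10 tested, with a median difference of -3.15. Limma called 2 of them, where 6.6% of all genes tested fell, and 8 had an unadjusted p under 0.05. Voom on recovered fragments called none. S100a9, a calcium-binding protein of neutrophils, was at 12310, 186.5, 133.8 and 352 FPKM in ICI 1 to 4 and at 10.2, 45.7, 19.0 and 6.20 in RI 1, 2, 4 and 5 (limma adjusted p = 0.0380). ICI 1 was far above the rest, and the other 3 ICI tumours also lay above every RI tumour. S100a8, the second called, is named after its values were seen. Without ICI 1 and ICI 4, limma called 3. Of 4 T cell markers Trac, the constant chain of the T cell receptor, fell from 5.49 ± 1.37 to 2.26 ± 0.897 FPKM (limma adjusted p = 0.0211, and 0.103 with length and GC trends removed), and the sum was 9.01 to 22.3 in ICI and 4.96 to 16.0 in RI. Of 5 epithelial markers Cldn3 fell, 24.1 ± 7.71 to 12.9 ± 3.44 FPKM (limma adjusted p = 0.0476, and 0.153 with length and GC trends removed). By the sign of the difference, 2 of the 5 were higher in RI. Krt8, which 4T1 cells express, was at 698 ± 262 and 510 ± 188 FPKM (limma adjusted p = 0.333), and Epcam was listed at 0 in some tumours. Of 5 skeletal muscle markers Ckm and Myh4 rose by limma, the second named after its values were seen, and the sum was 1.16 to 187 FPKM in ICI and 88.8 to 489 in RI. Neither the epithelial nor the muscle list had a gene called by limma without ICI 1 and ICI 4, a fit that called 603 of all genes. Voom called 1 of the epithelial and none of the muscle genes. Dendritic cell markers summed to 10.7 to 20.0 FPKM in ICI and 7.31 to 22.1 in RI, NK cell markers to 2.41 to 9.53 and 3.75 to 7.32, and adipocyte markers to 3.01 to 7.96 and 2.84 to 127.

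The genes whose pattern was most like that of Dock1 over the 8 tumours, by Pearson's r of log2(FPKM + 1), were Ankfy1 (0.991), Tln2 (0.990), Atxn1l (0.988), Tulp4 (0.987) and Nf2 (0.985). All of them were higher in RI, as Ankfy1 shows with group means of 7.91 and 16.5 FPKM. Both groups enter this r, so it includes the treatment contrast by which Dock1 was chosen. On deviations from the group means the most like were B3gnt2 (0.979), Sass6 (0.972), Mpdz (0.952), Usp44 (0.950) and Zcchc3 (0.946). Zcchc3 had an r of -0.34 over the 8 tumours, so likeness within groups and between them were not the same thing. Among the efferocytosis genes, r to Dock1 was 0.945 for Axl, 0.940 for Lrp1 and 0.771 for Pros1 over the 8 tumours, and on deviations it was 0.797, 0.178 and -0.491. Gas6 (-0.758) and Mertk (-0.694) ran against Dock1 on deviations. In ICI 1 Dock1 was at its lowest (1.60 FPKM), and Gas6 (37.0) and Mertk (5.47) were at their highest. B3gnt2, Sass6, Mpdz, Usp44 and Zcchc3 were also lowest in ICI 1 among the ICI tumours. The part of this library in the r on deviations was not tested. These are descriptions over 8 libraries that share depth and composition.

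The wider pathway was read from 88 further genes, of which 76 passed the filter. Of these 10 rose and 4 fell, together 18.4%, close to the 17.7% of all genes tested, and the median difference was 0.17. Rxra and Lipa held in each fit with 1 tumour left out, and the other 12 did not. Leaving out ICI 4 lowered the count to 2, leaving out RI 2 to 3, and leaving out RI 1 or RI 5 to 5. Without ICI 1 and ICI 4 it was 4, namely Rxra, Lipa, Itgb3 and Abca1.

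Among 13 eat-me and find-me genes 2 rose. Cx3cl1, the chemokine fractalkine released by dying cells, was at 10.6, 19.7, 14.3 and 13.7 FPKM in ICI 1 to 4 and at 37.6, 23.3, 25.6 and 24.1 in RI 1, 2, 4 and 5. All RI tumours were above all ICI tumours, with means of 14.6 ± 3.78 and 27.6 ± 6.70 (limma adjusted p = 0.0259). Ano6, a scramblase that can expose phosphatidylserine, went from 9.73 ± 0.962 to 14.4 ± 0.773 FPKM (limma adjusted p = 0.0234). Its limma adjusted p was 0.143 with length and GC trends removed. Among 4 tested do-not-eat-me genes limma called none, with none at an unadjusted p under 0.05 and none called by voom. Of these, Pirb was at 37.3 ± 61.6 and 6.75 ± 1.17 FPKM (limma adjusted p = 0.460) and Cd24a at 10.6 ± 9.69 and 8.35 ± 2.41 (0.967), both with their highest value in ICI 1. The difference of Pirb was 0.06 and that of Cd24a 0.46 without ICI 1.

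Of 13 other engulfment receptors 1 rose and 1 fell. Itgb3, the integrin chain that binds Mfge8 with the alpha V chain, went from 10.3 ± 1.85 to 17.9 ± 1.19 FPKM (limma adjusted p = 0.0168). Cd14, which tethers apoptotic cells and lipopolysaccharide, fell from 49.1 ± 14.1 to 25.6 ± 10.99 FPKM (limma adjusted p = 0.0498). Its groups overlapped, its adjusted p was 0.0797 with length and GC trends removed, and the call was held in 1 of the 8 fits with a tumour left out, that without RI 5. Ager, the receptor RAGE and a lung alveolar marker, was at 145.0 FPKM in ICI 1 and 67.3 in ICI 4 and at no more than 0.869 elsewhere, below the filter. Of 7 tested bridges Lgals3, galectin-3, fell from 540 ± 172 to 285 ± 57.9 FPKM (limma adjusted p = 0.0401, 0.0681 with length and GC trends removed). Anxa1, annexin A1, was at 238 ± 145 and 124 ± 26.6 (limma adjusted p = 0.131). ICI 1 was highest, and the Anxa1 difference of -0.80 was -0.44 without ICI 1 and -0.32 without ICI 1 and ICI 4.

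In engulfment signalling 4 rose and 1 fell of 17 tested, 29.4% against 17.7% of all genes tested, and without ICI 1 and ICI 4 limma called 1. Vav3, another Rac exchange factor, was at 5.01, 7.06, 5.96 and 4.29 FPKM in ICI 1 to 4 and at 10.2, 8.75, 8.98 and 12.1 in RI 1, 2, 4 and 5, with no overlap (limma adjusted p = 0.0210). Abca1, a lipid exporter, went from 3.17 ± 1.24 to 6.60 ± 1.59 FPKM (limma adjusted p = 0.0296, and 0.115 with length and GC trends removed). Crk, the adaptor that couples integrins to Dock1, went from 28.4 ± 6.73 to 43.7 ± 3.21 FPKM (limma adjusted p = 0.0429), and is named after its values were seen. Its difference of 0.63 was 0.35 without ICI 1 and ICI 4. Elmo3 and Dock5 are relatives of Elmo1 and Dock1. Elmo3 fell from 10.6, 6.62, 6.90 and 8.09 FPKM in ICI 1 to 4 to 5.17, 3.42, 3.15 and 3.61 in RI 1, 2, 4 and 5, with no overlap (limma adjusted p = 0.0167). Dock5 rose from 9.65 ± 1.37 to 14.2 ± 1.13 FPKM (limma adjusted p = 0.0312, and 0.238 with length and GC trends removed). Together these 2 were the called genes among 9 tested DOCK and ELMO relatives, whose median difference was -0.02. Neither was called by limma without ICI 1 and ICI 4, where 3 of the 9 had an unadjusted p under 0.05.

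Downstream of uptake, Lipa, the lysosomal acid lipase that splits cholesteryl esters of engulfed cells, was the 1 of 13 phagosome genes called. It was at 1.75, 2.18, 2.95 and 2.22 FPKM in ICI 1 to 4 and at 6.34, 5.62, 5.24 and 4.57 in RI 1, 2, 4 and 5. All RI values were above all ICI values (limma adjusted p = 0.0126). Lamp1, the lysosome membrane protein, was at 99.4 ± 16.9 and 148 ± 32.7 FPKM (limma adjusted p = 0.0812). Among 5 nuclear receptor and cholesterol efflux genes, Rxra, the partner of the LXR and PPAR receptors, rose from 3.99 ± 0.414 to 9.16 ± 0.879 FPKM (limma adjusted p = 0.0115). Nr1h2, which encodes LXR beta, fell from 44.3 ± 8.75 to 26.2 ± 3.39 (limma adjusted p = 0.0252). Among 4 genes of receptor shedding and feedback, Adam10, a protease that cleaves Axl and Mertk from the surface, rose from 20.7 ± 4.13 to 35.4 ± 3.05 FPKM (limma adjusted p = 0.0200). Socs3, a feedback inhibitor of cytokine signals, was at 63.8 ± 22.6 and 37.0 ± 5.70 (limma adjusted p = 0.0707).

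**Figure D5:**
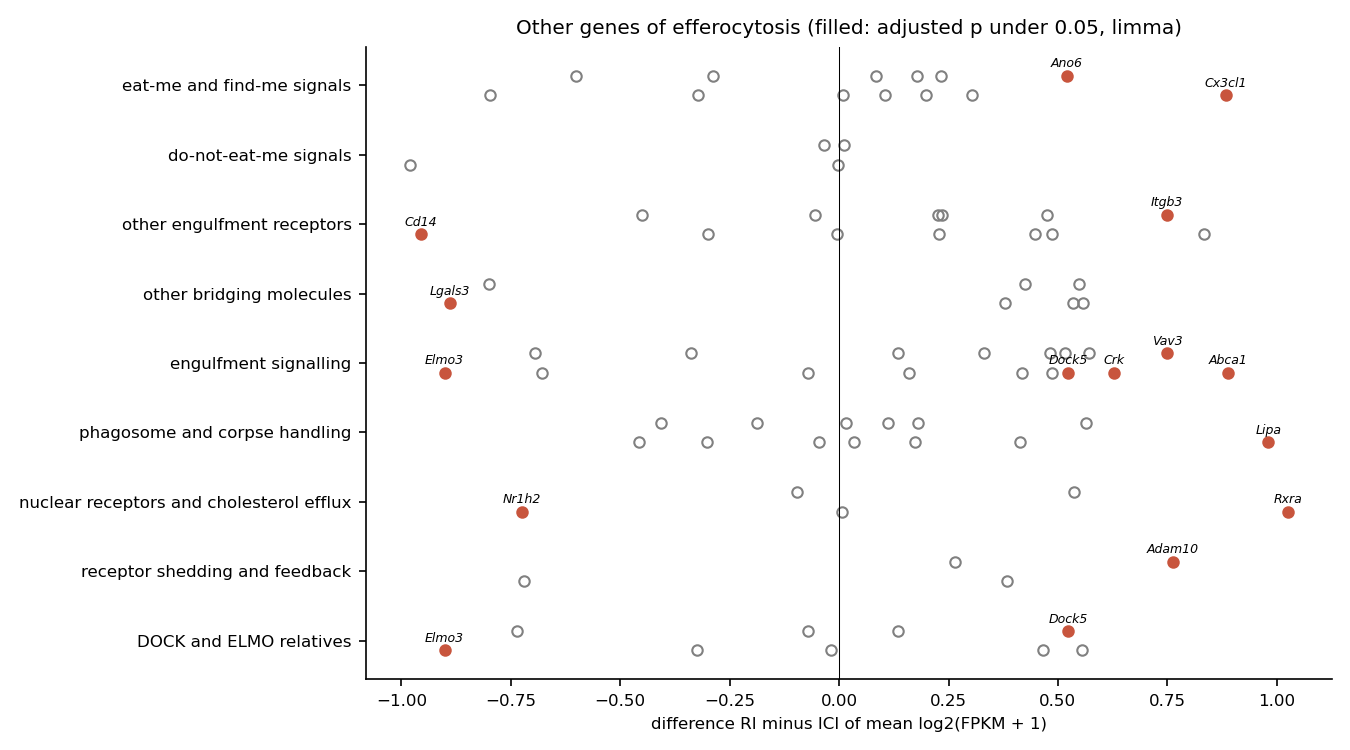
Difference RI minus ICI of mean log2(FPKM + 1) for the other efferocytosis genes that passed the filter, by list, with genes at an adjusted p under 0.05 (limma) filled and named. Of 76 genes 10 filled points lie to the right of 0 and 4 to the left, and Elmo3 and Dock5 appear again among their relatives.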

How the data were processed

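RNA sequencing of 8 tumours had been deposited as 1 table of FPKM values, fragments scaled by transcript length and library size, made by the authors with HISAT2 and GRCm38 (mm10), per the submitters' processing notes. How fragments were counted, on which annotation and with what filter is not given in the sources used here. Sample titles gave each tumour's group and number. The 10 genes and all lists were chosen with earlier results of these data known.

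Of 32098 rows, 31407 matched GENCODE M21 by identifier, which gave coordinates (1-based, GRCm38) and exon lengths. Whole fragments were recovered from the spacing of low FPKM values. Of the values up to 50 fragments, 98.6% to 98.8% then lay within 0.05 of a whole number. They served for depth and for voom. Their share from the mitochondrial genome was 4.37% to 8.14% in ICI and 2.56% to 3.22% in RI.

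Genes that reached 1 FPKM in 4 or more tumours were fitted with limma 3.58.1 in R 4.3.3 on log2(FPKM + 1), a pseudocount of 1 (lmFit, eBayes with its trend and robust options, two-sided test, Benjamini-Hochberg over 13439 genes, called at an adjusted p under 0.05). The procedure was run on simulated data with independent normal scatter for each gene and no outlying library. That run therefore does not speak for data with libraries such as ICI 1 and ICI 4. No p-value is given for the 10 genes. Other genes named are, per list, the called ones up to 4 by smallest p, or the 2 with the smallest p where fewer than 2 were called. In marker lists they are the most abundant gene and the one with the smallest p, some of which are given by their list's sum alone. The alternatives were no filter, pseudocounts of 0.1 and 5, TPM, median centring, length and GC trend removal (lowess, span 0.3), voom, plain eBayes, a replicate block and left-out libraries.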

Additional observations from a re-analysis of the deposited data

Results flagged for a closer look

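Single tumours stood far from the other 3 of their group in 8 of the 58 gene and group combinations examined. In each the gap to the nearest value, divided by the group's range, exceeded Dixon's critical value for 4 samples, which chance passes in about 1 of 20 groups. Of the 8, 6 were in ICI 1, the library with the lung epithelial and neutrophil transcripts. There Elmo1 was at 3.05 FPKM, Gas6 at 37.0, Pirb at 129.6, Cd24a at 25.0, Anxa1 at 453 and Nr1h2 at 57.3. The other two were Ano6 in RI 5, at 15.5 FPKM, and Cx3cl1 in RI 1, at 37.6 FPKM.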

How the results depend on the processing

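Over all genes 2373 were called. The count was 241 without the filter, 280 on TPM, 603 without ICI 1 and ICI 4, and 336 to 2693 with 1 library left out (lowest without ICI 4). Median centring split the calls 1500 up and 1623 down, against 1486 and 887, and moved no efferocytosis count by over 1.5 times. Of the 10 genes, 4 were called, 2 without the filter, 1 on TPM, 2 without ICI 1 and ICI 4, and 2 to 5 with 1 library left out. The 2 came without ICI 4, RI 2 or RI 5. The 10 were chosen on this contrast, so these counts say nothing of stability. Of the other efferocytosis genes 14 were called, 2 without the filter, 23 with voom, 4 without ICI 1 and ICI 4, and 2 to 15 with 1 library left out. On TPM limma called 0 of them, with 11 at an unadjusted p under 0.05. With length and GC trends removed 13 rose and 3 fell, 9 of them among the 14. The relatives' count of 2 was 0 without the filter (4 at an unadjusted p under 0.05), 0 on TPM (1), 0 without ICI 1 and ICI 4 (3), and 0 to 3 with 1 library left out. The cause of these changes was not tested.

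The replicate block, pairing numbers 1, 2 and 4, left 22 genes called, with 0 of the 10, 0 of the other efferocytosis genes and 0 of the relatives by limma, where 4, 21 and 3 had an unadjusted p under 0.05. Together with length and GC removal the block left 2 genes, with 0, 0 and 0, where 4, 22 and 2 had one. Deviations from the group means had an r of -0.0923, -0.12 and -0.124 in same-numbered tumours, and of -0.152 to 0.205 in other pairs. With so few pairs, these values cannot show whether same-numbered tumours shared more than a number.

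With 1 library left out the difference of Elmo1 ran from -0.34 to 0.14, that of Pirb from -1.45 to 0.056 and that of Cd24a from -0.28 to 0.46. Directions turned for Elmo1, with differences of 0.14 without ICI 1, 0.20 without ICI 1 and RI 4, and 0.14 without ICI 1 and ICI 4. Under the block with length and GC removal Mertk was at -0.10 and Stab1 at -0.11. Pirb was at 0.056 without ICI 1, 0.16 without ICI 1 and RI 4, and 0.16 without ICI 1 and ICI 4. Cd24a was at 0.068 on TPM, 0.11 with voom, 0.46 without ICI 1, 0.07 without RI 1, 0.02 without RI 4, 0.51 without ICI 1 and RI 4, and 0.43 without ICI 1 and ICI 4. Depth was lowest for Elmo1 (227 fragments), Tyro3 (253) and Mertk (261).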
